A study of Homo sapiens with 6 samples.

Results

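Of the cytochrome P450 genes of families 1 and 4F, CYP4F11 and CYP4F2 had higher intensities in the radioresistant esophageal squamous cancer line KY170R than in its parental line KY170 at 0, 8 and 24 h, on average by 8.07-fold and by at least 3.62-fold over the 3 time points. CYP1A1 differed in direction between the time points, CYP1B1 lay near background, and the probes of CYP4F3 and CYP4F12 were at or near background on nearly all arrays. Neither the receptor AHR nor the reductase POR differed between the lines in the same direction at all 3 time points. AHR passed as higher at 24 h than at 0 h, as did 20.4% of all tested probes. It did not pass with some single arrays left out. The 8 genes described are CYP1A1, CYP1B1, CYP4F2, CYP4F3, CYP4F11, CYP4F12, AHR and POR, taken by gene symbol, with all 11 of their probes among the 48803 probes of the array. These genes were selected on their intensities in KY170R against KY170, with those values already known. Every difference in level between the lines is therefore given as a description, with no test.

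KY170 (kyse170 in the labels) is an established human esophageal squamous carcinoma line, and KY170R is a clone derived from it by repeated rounds of fractionated irradiation. RNA of KY170R and of KY170 was hybridised to Illumina Human-6 V3 bead arrays for 0, 8 and 24 h after irradiation, with 1 array for each line and time point and thus no replicate of any combination. The sources used here name no dose, and they differ on whether the 0 h cells had been irradiated. No unirradiated cells at 8 or 24 h were analysed here, so time in culture and irradiation cannot be told apart, and KY170R is represented by 1 clone, so that clone and resistance cannot be told apart either. Intensities were background-subtracted and normalised between arrays before deposit, with means of 432.5 to 434.6 on the 6 arrays. A probe was taken to be above background where its intensity exceeded 11.6, a limit set from the size of the negative values. It was tested where it did so on at least 2 of the 6 arrays, which held for 22720 probes in all and for 8 of the 11 probes described here. The same line pair correlated at r = 0.970, 0.980 and 0.975 at 0, 8 and 24 h over the log2 intensities of the tested probes, whereas the 0 h array correlated with the later arrays of its own line at 0.909 to 0.937, against 0.963 in KY170R and 0.968 in KY170 between 8 and 24 h. The 0 h arrays therefore stood apart from the rest. Of the 8 squamous epithelial markers matched on the array, 7 were above the limit on all 6 arrays, among them KRT5, SOX2 and DSG3. Their summed intensity was 6147 to 12991 in KY170R and 12703 to 19357 in KY170. Hepatocyte markers, of interest because the liver is rich in P450 enzymes, summed to 56.0 to 135 in KY170R and 70.9 to 138 in KY170. Of these 8 markers, APOA1, APOC3 and TF were under the limit on all arrays. SERPINA1 was above it on all 6 arrays (14.8 to 44.8), APOA2 on 5, TTR and FGB on 3 each and ALB on 2.

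Cytochrome P450 enzymes are haem proteins of the endoplasmic reticulum that insert an oxygen atom into lipids and foreign compounds, with electrons delivered from NADPH by the reductase POR. Family 4F enzymes hydroxylate the end of the carbon chain of fatty acids, leukotrienes and the side chain of vitamins E and K. The family 1 genes CYP1A1 and CYP1B1 encode enzymes that oxidise polycyclic aromatic hydrocarbons, and they are classical targets of AHR, a ligand-activated transcription factor that works as a dimer with ARNT. The family 4F genes lie in a cluster on chromosome 19, where CYP4F2 and CYP4F11 are neighbours and CYP4F3 lies between CYP4F8 and CYP4F12.

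The RefSeq promoter windows of the genes on which the results turn are shown because CYP4F11 and CYP4F2 were the genes that differed between the lines and CYP1A1 is the best-known target of AHR. Promoters (assembly GRCh38.p14, 250 bases before to 50 after the start site, written in the direction of the gene) were matched for 5 of the 8 genes, with 2 entries for CYP4F11. Capitals mark the core of the AHR response element (GCGTG) or of the antioxidant response element (TGACNNNGC), both searched on both strands.
CYP4F11, first entry, chr19:15934818-15935117, minus strand: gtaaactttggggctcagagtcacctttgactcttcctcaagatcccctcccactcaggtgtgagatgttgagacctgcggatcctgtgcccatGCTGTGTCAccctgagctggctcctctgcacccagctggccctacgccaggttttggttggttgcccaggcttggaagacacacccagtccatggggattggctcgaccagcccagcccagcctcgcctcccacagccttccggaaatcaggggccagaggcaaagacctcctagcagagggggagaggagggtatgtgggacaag
CYP4F11, second entry, chr19:15934480-15934779, minus strand: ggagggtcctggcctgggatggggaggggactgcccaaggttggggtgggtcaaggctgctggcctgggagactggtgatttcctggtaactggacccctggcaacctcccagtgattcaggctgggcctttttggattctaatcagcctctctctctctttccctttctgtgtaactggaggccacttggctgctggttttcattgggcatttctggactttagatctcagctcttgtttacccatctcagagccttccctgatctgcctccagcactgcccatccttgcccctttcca
CYP4F2, chr19:15898025-15898324, minus strand: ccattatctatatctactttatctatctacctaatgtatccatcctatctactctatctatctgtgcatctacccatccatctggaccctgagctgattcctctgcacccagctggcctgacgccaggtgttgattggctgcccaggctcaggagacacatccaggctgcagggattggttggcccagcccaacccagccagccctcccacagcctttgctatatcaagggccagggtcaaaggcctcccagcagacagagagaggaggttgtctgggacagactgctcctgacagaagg
CYP4F3, chr19:15641062-15641361, plus strand: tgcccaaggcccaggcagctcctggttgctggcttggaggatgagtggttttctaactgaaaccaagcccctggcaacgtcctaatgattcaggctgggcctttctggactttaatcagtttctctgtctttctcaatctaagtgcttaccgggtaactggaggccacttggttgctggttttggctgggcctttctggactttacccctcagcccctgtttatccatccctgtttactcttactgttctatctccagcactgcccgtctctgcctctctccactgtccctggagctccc
CYP1A1, chr15:74725479-74725778, minus strand: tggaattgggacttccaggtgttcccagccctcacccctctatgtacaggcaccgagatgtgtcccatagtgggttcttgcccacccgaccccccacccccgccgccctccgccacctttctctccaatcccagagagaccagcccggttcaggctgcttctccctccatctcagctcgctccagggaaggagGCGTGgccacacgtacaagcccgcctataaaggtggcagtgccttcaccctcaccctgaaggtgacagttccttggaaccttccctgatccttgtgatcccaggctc

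The first CYP4F11 window held 1 antioxidant core, read on the opposite strand as GCTGTGTCA and starting 156 bases before the start site. The CYP1A1 window held 1 AHR core 57 bases before the start site, and the AHR window, not shown, held 1 AHR core 37 bases after it. The windows of CYP4F2, CYP4F3 and the second CYP4F11 entry held neither core. Such cores are common: among 35116 promoter windows of this length, 36.5% held the AHR core and 13.3% the antioxidant core, and the matches here did not overlap each other. Aligned end to end, the CYP4F2 window and the first CYP4F11 window were identical at 66.7% of alignment columns (218 of 327), and the CYP4F3 window and the second CYP4F11 window at 62.4% (212 of 340). The other 13 pairs of windows were identical at 44.8 to 51.9%.

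CYP4F11, a fatty acid and vitamin K hydroxylase, had the most widely separated values of the 8 genes. Its probe read 623, 387 and 1031 in KY170R at 0, 8 and 24 h, against 152, 37.0 and 83.9 in KY170. All 3 KY170R arrays lay above all 3 KY170 arrays. The intensity in KY170R was thus 4.09-fold that of KY170 at 0 h, 10.4-fold at 8 h and 12.3-fold at 24 h, with a log2 difference of 3.01 ± 0.86 (mean and SD of 3 time points, 1 array per line at each). The arrays measured bulk RNA, in which fewer expressing cells and less RNA per cell cannot be told apart.

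CYP4F2, the neighbour of CYP4F11 and a hydroxylase of arachidonic acid and vitamin K, was dimmer but again separated the lines. One probe read 78.3, 25.0 and 51.4 in KY170R, against 15.2, 12.0 and 3.38 in KY170, the last of them under the background limit. No KY170 array reached the lowest KY170R array. The ratio of KY170R to KY170 was 5.15-fold at 0 h, 2.09-fold at 8 h and at least 4.44-fold at 24 h, and the mean log2 difference was 1.86 ± 0.70 with the value under the limit raised to it. The second CYP4F2 probe was under the limit on all 6 arrays, with values of -9.61 to 1.83, so the difference rested on 1 of 2 probes.

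**Figure D1:**
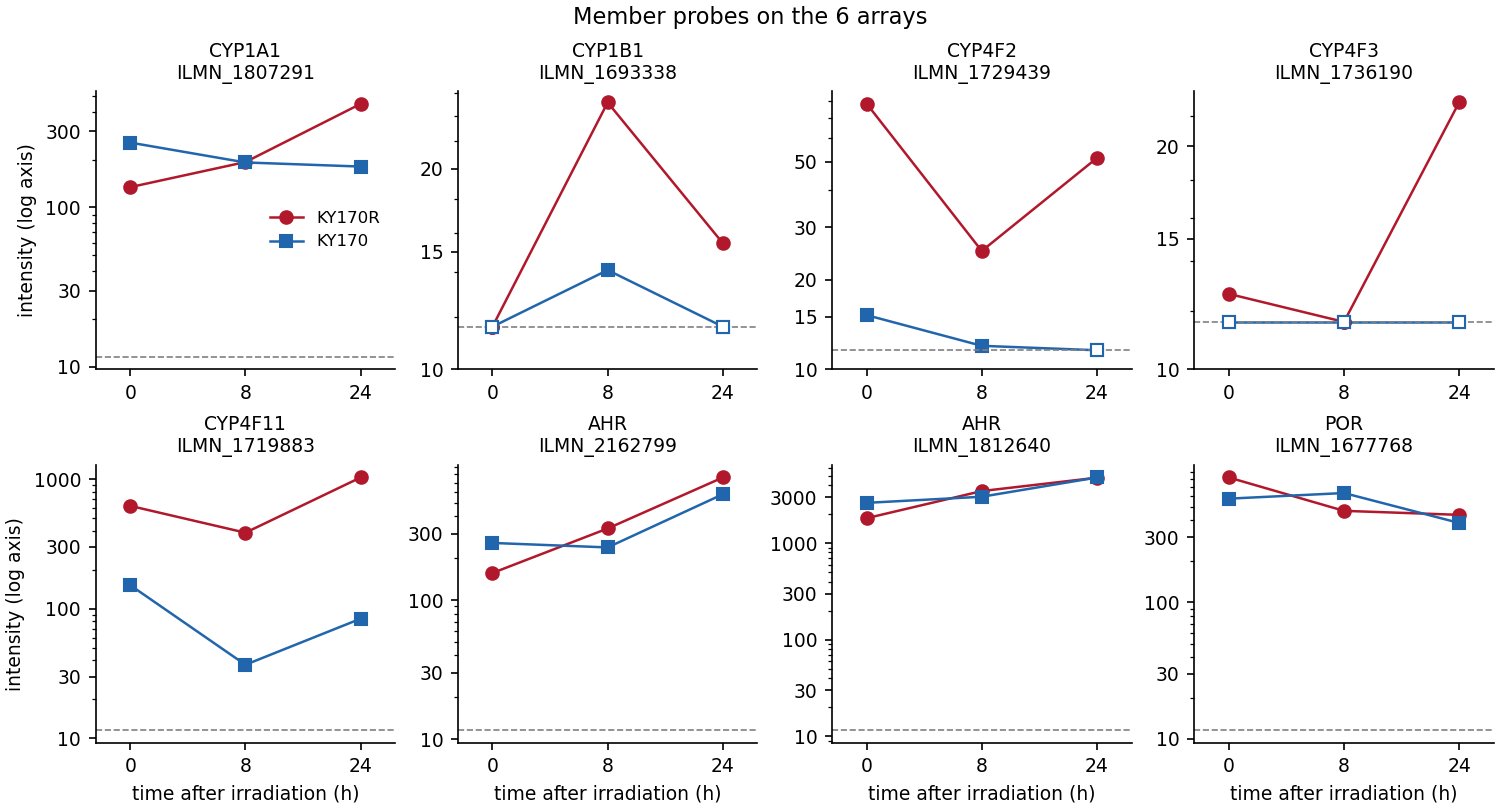
Intensity (log axis) of the 8 tested probes at 0, 8 and 24 h in KY170R (red circles) and KY170 (blue squares), 1 array per point, with the background limit of 11.6 as a dashed line and values under it drawn open at the limit (where both lines are under it the points overlap). The KY170R points of CYP4F11 (387 to 1031) and CYP4F2 (25.0 to 78.3) all lie above the KY170 points, while the lines cross for CYP1A1, AHR and POR.

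CYP4F3, which inactivates leukotrienes in neutrophils, gave values near background. The brighter of its probes read 12.6, 1.45 and 22.9 in KY170R, against 0.831, -3.51 and 8.88 in KY170. It was above the limit at 0 and 24 h in KY170R and on no KY170 array, which makes the KY170R value higher by at least 1.09-fold at 0 h and 1.98-fold at 24 h. The other CYP4F3 probe stayed under the limit throughout, at -7.39 to -1.57. CYP4F12, a fatty acid hydroxylase that also metabolises antihistamines, read -1.25, 5.10 and 20.6 in KY170R, against -4.99, -6.71 and 2.01 in KY170. It was above the limit on the KY170R 24 h array alone, at least 1.78-fold higher there, and was not tested. CYP4F8 (-9.34 to 3.20) and CYP4F22 (-12.1 to -1.95), other genes of the cluster, were under the limit on all 6 arrays. Family 4F genes are close relatives in sequence, and the probe sequences were not used here, so how much signal of one gene reached the probe of another was not tested.

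CYP1A1, the main AHR-driven hydrocarbon hydroxylase, differed between the lines in opposite directions at 0 and 24 h. Its probe read 134, 193 and 447 in KY170R, against 255, 192 and 181 in KY170. KY170R was the lower line at 0 h (KY170 was 1.90-fold higher), close to KY170 at 8 h (1.01-fold) and 2.47-fold higher at 24 h, so the values of the lines overlapped and the mean log2 difference, 0.13 ± 1.12, was smaller than its spread over time. CYP1B1, which also hydroxylates estradiol, read 2.21, 25.1 and 15.5 in KY170R, against 10.7, 14.1 and 5.61 in KY170. It was above the limit on 2 KY170R arrays and 1 KY170 array, with KY170R 1.79-fold higher at 8 h and at least 1.33-fold higher at 24 h.

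AHR was measured by 2 probes with similar courses (r = 0.957 over the 6 arrays). The brighter probe read 1811, 3459 and 4755 in KY170R, against 2611, 3021 and 4782 in KY170. The dimmer one read 156, 327 and 761 in KY170R, against 257, 239 and 577 in KY170. Both had lower values in KY170R at 0 h, where KY170 was 1.44-fold and 1.65-fold higher. Over the time points the mean log2 differences were -0.11 ± 0.37 and 0.05 ± 0.66, with overlapping values. POR, the electron donor of the microsomal P450 enzymes, read 824, 469 and 439 in KY170R, against 577, 634 and 383 in KY170. It was 1.43-fold higher in KY170R at 0 h, lower at 8 h (KY170 was 1.35-fold higher) and 1.15-fold higher at 24 h, with a mean log2 difference of 0.09 ± 0.48.

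Counted as at least 2-fold apart in one direction at all 3 time points, 2 of the 8 tested probes were higher in KY170R (CYP4F11 and CYP4F2) and 0 were lower. Over all tested probes the same rule held for 0.704% on the higher side and 0.581% on the lower side. Since the genes were chosen with this contrast known, nothing is read from the count. The count was 1 where values were raised to a limit of 23.2 rather than 11.6, because CYP4F2 then fell short of 2-fold. The squamous keratin KRT13 also separated the lines without overlap, with 1377, 574 and 1295 in KY170R against 13654, 7498 and 7391 in KY170, as did KRT5, with 218, 153 and 68.3 in KY170R against 361, 484 and 484 in KY170. KRT14, another squamous keratin, separated them the other way, with 126, 289 and 80.6 in KY170R against 5.90, 26 and 15.3 in KY170. The other 5 squamous markers matched gave overlapping values, and the part of these markers in the CYP4F difference was not tested.

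**Figure D2:**
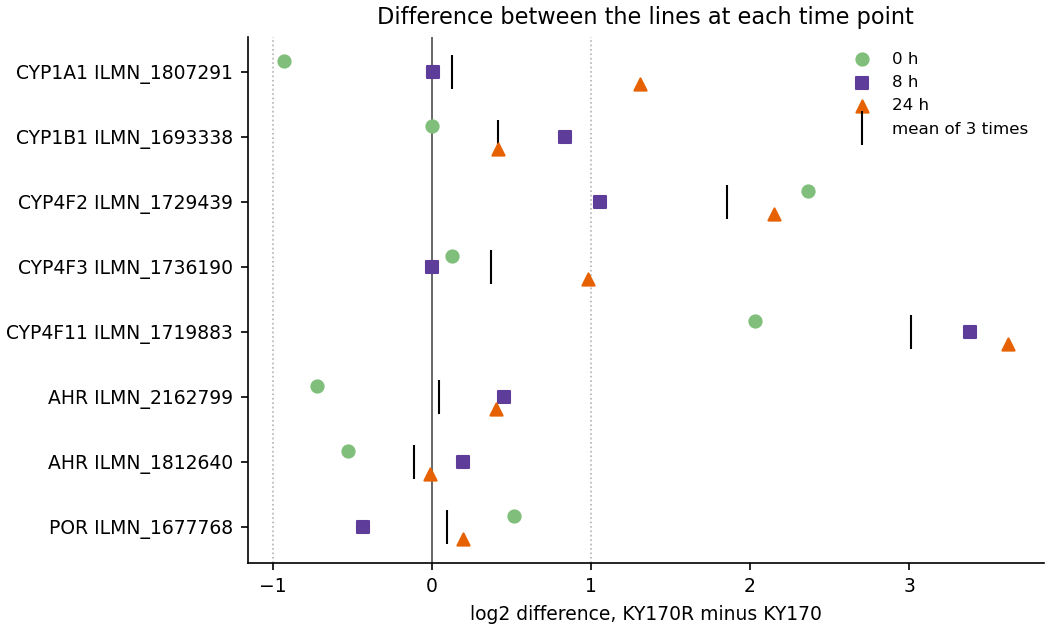
Log2 difference between the lines (KY170R minus KY170) of the 8 tested probes at 0 h (circles), 8 h (squares) and 24 h (triangles), with a bar at the mean of the 3 time points and dotted lines at a 2-fold difference, values under the background limit raised to it. CYP4F11 (2.03, 3.38 and 3.62) and CYP4F2 (2.36, 1.06 and 2.15) lie beyond 2-fold at every time, and CYP1A1 runs between -0.93 at 0 h and 1.31 at 24 h.

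The change over time was not the contrast on which the genes were selected. Earlier results of these data were known, however, when the genes and tests were chosen. The change was tested, as the mean over both lines, with limma and a prior variance that follows the mean level. All p-values were adjusted by the Benjamini-Hochberg method over the 22720 probes. The comparisons of 8 h and of 24 h with 0 h share the 0 h arrays. Nothing in the labels ties the arrays to separate cultures, and the p-values therefore measure only the spread between these arrays, which includes any difference between the lines in their course.

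At 24 h AHR was higher than at 0 h by both probes, with log2 changes of 1.13 (SE 0.21, adjusted p = 0.00283, 2.19-fold) and 1.72 (SE 0.33, adjusted p = 0.00318, 3.30-fold). The brighter probe stood 2.63-fold above its 0 h value in KY170R and 1.83-fold in KY170, and the dimmer one 4.87-fold in KY170R and 2.24-fold in KY170. These were 2 of 8 tested probes called higher and 0 called lower, beside 20.4% higher and 19.2% lower over all tested probes, so that calls were frequent at this time point. AHR lost its call with KY170R 0 h (log2 0.82 and 1.15, adjusted p = 0.0834 and 0.076), KY170R 24 h (1.05 and 1.46, adjusted p = 0.0989 and 0.128) or KY170 24 h (1.21 and 1.99, adjusted p = 0.069 and 0.068) left out, and kept it without any other array. POR had a log2 change of -0.75 at 24 h (SE 0.28, adjusted p = 0.0551), with lower values than at 0 h in both lines, by 1.88-fold in KY170R and 1.51-fold in KY170, and did not pass. Over the 6 arrays POR correlated with the AHR probes at r = -0.951 and -0.910, a description of arrays that share lines and time points.

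At 8 h CYP4F11 was lower than at 0 h, with a log2 change of -1.36 (SE 0.39, adjusted p = 0.0247, 2.57-fold lower). The 8 h value was 1.61-fold lower in KY170R and 4.11-fold lower in KY170. It was the single probe of 8 called lower, and 0 were called higher, beside 15.2% lower and 15.6% higher over all tested probes. The call was lost with any of the 6 arrays left out (adjusted p = 0.0718 to 0.298), and the change was -0.63 without KY170 0 h and -2.10 without KY170R 0 h. CYP4F2 had a 1.99-fold lower mean value at 8 h (SE 0.46 on the log2 scale, adjusted p = 0.133), by 3.13-fold in KY170R and 1.27-fold in KY170, and did not pass. CYP1B1 had a log2 change of 0.70 (SE 0.31, adjusted p = 0.123), and AHR had changes of 0.57 (SE 0.21, adjusted p = 0.0663) and 0.48 (SE 0.33, adjusted p = 0.32).

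Between 8 and 24 h CYP4F11 had a log2 change of 1.30 (SE 0.39, adjusted p = 0.075). The later value was 2.67-fold higher in KY170R and 2.27-fold higher in KY170, a step of similar size in both lines. The dimmer AHR probe had a change of 1.25 (SE 0.33, adjusted p = 0.0552), 2.33-fold in KY170R and 2.41-fold in KY170. None of the 8 tested probes passed in this comparison, in which 3.51% of all tested probes were called higher and 2.69% lower. Its fold changes do not use the 0 h arrays but its estimate of the spread does. The calls over all tested probes were lost with any single array left out, from 0, 8 or 24 h alike. Each such fit kept only 1 residual degree of freedom. The loss therefore does not single out the 0 h arrays.

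**Figure D3:**
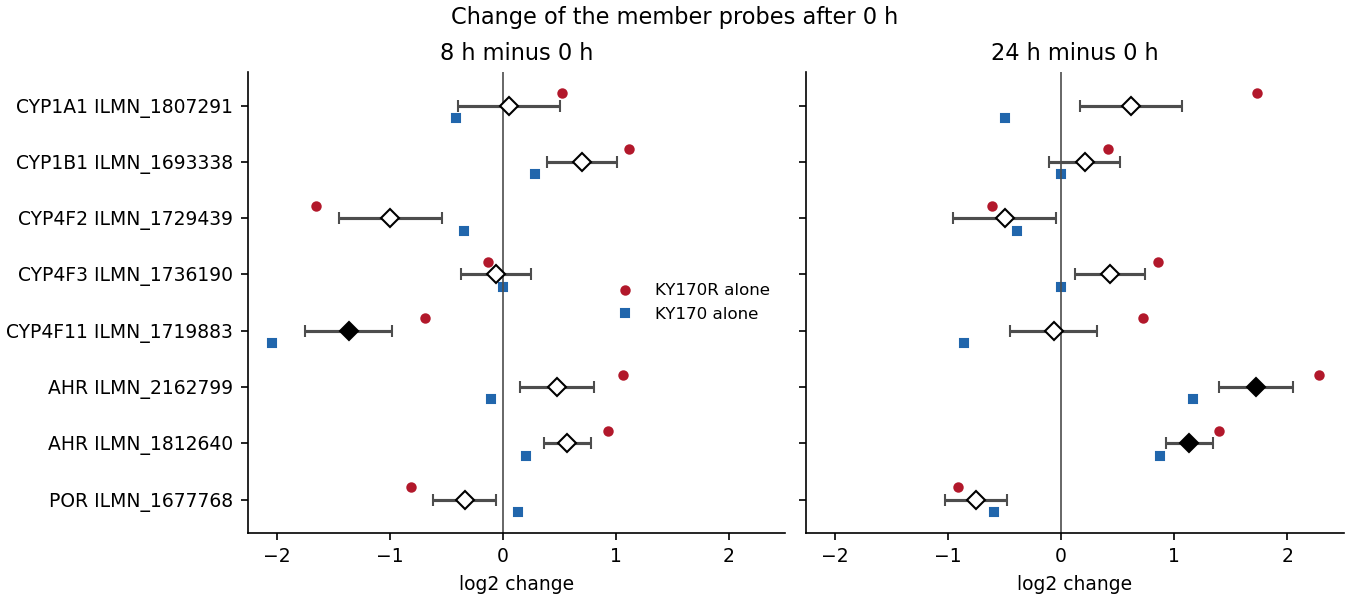
Log2 change of the 8 tested probes at 8 h (left) and 24 h (right) against 0 h: diamonds give the mean of both lines with its SE from limma (filled where the adjusted p is under 0.05), red circles KY170R alone and blue squares KY170 alone, 1 array per line and time point. The filled diamonds are CYP4F11 at 8 h (-1.36) and both AHR probes at 24 h (1.13 and 1.72), and the CYP1A1 points of KY170R and KY170 lie on opposite sides of 0 in both panels.

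Whether the lines differed in their change after 0 h was tested as an interaction of line with the later time points. The interaction is built from the same intensities of KY170R against KY170 on which the genes were selected. Its p-values are therefore given without a conclusion. CYP1A1 lay on opposite sides of its 0 h value: it was 1.44-fold higher at 8 h and 3.33-fold higher at 24 h than at 0 h in KY170R, against 1.33-fold lower and 1.41-fold lower in KY170. The difference between the lines was 1.59 on the log2 scale (SE 0.87, unadjusted p = 0.132, adjusted p = 0.999) and did not pass. CYP4F11 had a difference of 1.47 (SE 1.17, adjusted p = 0.999). None of the 8 probes passed, and 0.0% of all tested probes did in limma with either prior variance, with 522 at an unadjusted p under 0.05 under the trended prior and 778 under a constant one.

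The other genes of the pathway were taken as lists, each gene by its brightest tested probe, and are described by counts. The lists were chosen with earlier results of these data known, so their counts are a description. Among 18 tested partners and targets of AHR, 1 was at least 2-fold higher in KY170R at all 3 time points and 0 were lower, beside 0.704% and 0.581% of all tested probes. The median log2 difference between the lines was 0.16, beside 0.00 over all tested probes, and these all-probe values hold for each list below. The gene that was higher, ALDH3A1, an aldehyde dehydrogenase, read 2736, 964 and 1512 in KY170R, against 989, 139 and 150 in KY170. CYP1A2, the neighbour of CYP1A1 on chromosome 15, read 17.5, 30.3 and 1.18 in KY170R, against 45.1, 56.6 and 39.6 in KY170, and so lay lower in KY170R at each time. The efflux pump gene ABCG2 had 8.87, 93.5 and 79.4 in KY170R, against 76.6, 114 and 161 in KY170, with the KY170R 0 h value under the limit. IL1B, an inflammatory cytokine, read 6976, 2249 and 14145 in KY170R, against 5274, 811 and 3119 in KY170, higher in KY170R at each time. At 24 h, 7 of the 18 were called higher than at 0 h and 1 lower, beside 20.4% and 19.2% of all tested probes, with a median log2 change of 0.61 beside -0.09. Among the 7 was TIPARP, an AHR target that represses the receptor, with 865, 1941 and 4103 in KY170R and 1264, 1654 and 2768 in KY170 (log2 change at 24 h 1.69, adjusted p = 0.00139), whereas ALDH3A1 was the gene called lower (-1.79, adjusted p = 0.00556). NQO1, a quinone reductase controlled by both AHR and NFE2L2, had a mean log2 difference of 0.95 between the lines and a change of 0.66 at 24 h (adjusted p = 0.0251).

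The proteins that pass electrons to P450 enzymes and the enzymes of haem did not separate the lines by 2-fold at all time points. Of 10 tested electron partners and adaptors, 0 were higher and 0 lower in KY170R, with a median log2 difference of -0.19. CYB5A, cytochrome b5, read 4643, 2674 and 3326 in KY170R and 6927, 3949 and 4151 in KY170, lower in KY170R at each time (mean log2 difference -0.49 ± 0.15). FDX1, the ferredoxin of mitochondrial P450 enzymes, was dim, with 3.00, 7.10 and 24.8 in KY170R, against 15.8, 19.2 and 37.0 in KY170. Mean log2 differences were 0.34 ± 0.61 for CYB5R1, a cytochrome b5 reductase, and -0.33 ± 0.50 for MTRR, methionine synthase reductase. At 24 h 5 of the 10 were called higher and 3 lower, beside 20.4% and 19.2% of all tested probes. Of 10 tested genes of haem synthesis and breakdown, 0 differed by 2-fold between the lines at all time points, while 8 were called lower and 0 higher at 8 h, with a median log2 change of -1.23, beside 15.2% lower, 15.6% higher and a median of 0.00 over all tested probes. They included ALAS1, the rate-limiting enzyme of haem synthesis (149, 43.3 and 52.1 in KY170R and 123, 55.5 and 80.5 in KY170, log2 change at 8 h -1.46, adjusted p = 0.0147). PPOX, another enzyme of haem synthesis, had a change of -2.06 (adjusted p = 0.000766), and BLVRA, a biliverdin reductase, one of -2.95 (adjusted p = 0.000526). HMOX1, which degrades haem, read 108, 12.6 and 165 in KY170R, against 117, 15.4 and 16.6 in KY170, so that the lines were close at 0 and 8 h and apart at 24 h. ALAD, an enzyme of haem synthesis that was not called at 8 h, read 744, 443 and 608 in KY170R, against 362, 261 and 300.5 in KY170, higher in KY170R at each time. At 24 h 5 of these 10 genes were called lower and 0 higher, beside 19.2% and 20.4% of all tested probes. With any 0 h or 8 h array left out, 0 of all 22720 probes were called at 8 h, so none of the 8 h counts of the lists held there. The same was true of the 24 h counts without KY170R 0 h or KY170R 24 h.

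Other P450 genes were mostly under the limit or alike in the lines. Of 8 other family 4 genes on the array 4 were tested, and 0 differed by 2-fold at all times or were called at 8 or 24 h. CYP4X1, a fatty acid oxidase, read 61.8, 33.8 and 99.2 in KY170R, against 217, 85.0 and 152 in KY170, lower in KY170R at each time, and CYP4V2, a hydroxylase of fatty acids in the eye, had a mean log2 difference of -0.11 ± 0.27. Of 21 genes of families 2, 3, 26 and 27 on the array 9 were tested and 0 differed by 2-fold at all times. CYP2J2, an epoxygenase of arachidonic acid, read 581, 936 and 1169 in KY170R, against 1374, 1228 and 1900.0 in KY170, lower in KY170R at each time (mean log2 difference -0.78 ± 0.43). CYP2S1, an extrahepatic enzyme, read 1094, 408 and 594 in KY170R and 885, 286 and 356 in KY170, and was called lower at 8 h (log2 change -1.53, adjusted p = 0.00165). CYP27A1 and CYP27B1, hydroxylases of sterols and of vitamin D, had mean log2 differences of 0.47 ± 0.28 and 0.20 ± 1.01. Of 16 sterol and steroid P450 genes 5 were tested. CYP39A1, an oxysterol hydroxylase, was the one at least 2-fold higher in KY170R, with 32.8, 30.8 and 96.2 in KY170R, against -1.16, -0.29 and 20.1 in KY170, of which the 0 and 8 h values lay under the limit. CYP51A1, of cholesterol synthesis, CYP21A2 and CYP11A1, both of steroid synthesis, had mean log2 differences of 0.59 ± 0.34, 0.55 ± 0.44 and -0.22 ± 0.38. CYP51A1 was dim, with 24.4, 15.2 and 18.8 in KY170R, against 13.5, 13.1 and 7.07 in KY170, the last under the limit. CYP21A2 was close to the limit at 24 h (12.8 in KY170R and 12.3 in KY170).

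Among 16 tested genes of eicosanoid synthesis and breakdown, the pathway that supplies and removes substrates of family 4F enzymes, 1 lay at least 2-fold above KY170 in KY170R and 1 at least 2-fold below. PTGR1, which inactivates prostaglandins and leukotrienes, read 2678, 2828 and 3607 in KY170R, against 986, 1045 and 993 in KY170. ALOX15, a lipoxygenase, read 26.5, 21.96 and 10.5 in KY170R, against 56.5, 52.5 and 24.0 in KY170, with the KY170R 24 h value under the limit. HPGD, which degrades prostaglandins, read 21.1, 15.8 and 57.1 in KY170R and was under the limit on all KY170 arrays (7.26, 4.05 and 3.11). Of 16 tested conjugation and xenobiotic enzymes 4 were at least 2-fold higher and 0 lower, beside 0.704% and 0.581% of all tested probes, with a median log2 difference of 0.25 beside 0.00. These were ALDH3A1, described above, and the aldo-keto reductases AKR1C2, AKR1C3 and AKR1B10. The study had singled out AKR1C3 from its profiling of resistant against parental cells, and the list was chosen with earlier results known. Nothing is therefore read from this count. AKR1C2 read 18055, 11333 and 20321 in KY170R, against 4508, 1851 and 2655 in KY170. AKR1B10 read 170, 45.8 and 96.8 in KY170R, against 31.7, 3.92 and 7.49 in KY170, of which the 8 and 24 h values lay under the limit. AKR1C2 and AKR1C3 are relatives in sequence, and whether their probes share signal was not tested. Of 10 tested nuclear receptors and partners 0 differed by 2-fold at all times. The oxysterol receptor gene NR1H3 read 323, 22.8 and 92.0 in KY170R and 359, 52.4 and 148 in KY170 (log2 change at 8 h -3.30, adjusted p = 0.000524), and NFE2L2, the factor that binds antioxidant elements, was called higher at 24 h (1.57, adjusted p = 0.00262) with a mean difference between the lines of 0.13. Mean log2 differences were -0.68 ± 0.52 for NR1H3, -0.41 ± 0.19 for PPARG, 0.36 ± 0.15 for RXRA and -0.31 ± 0.51 for VDR.

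**Figure D4:**
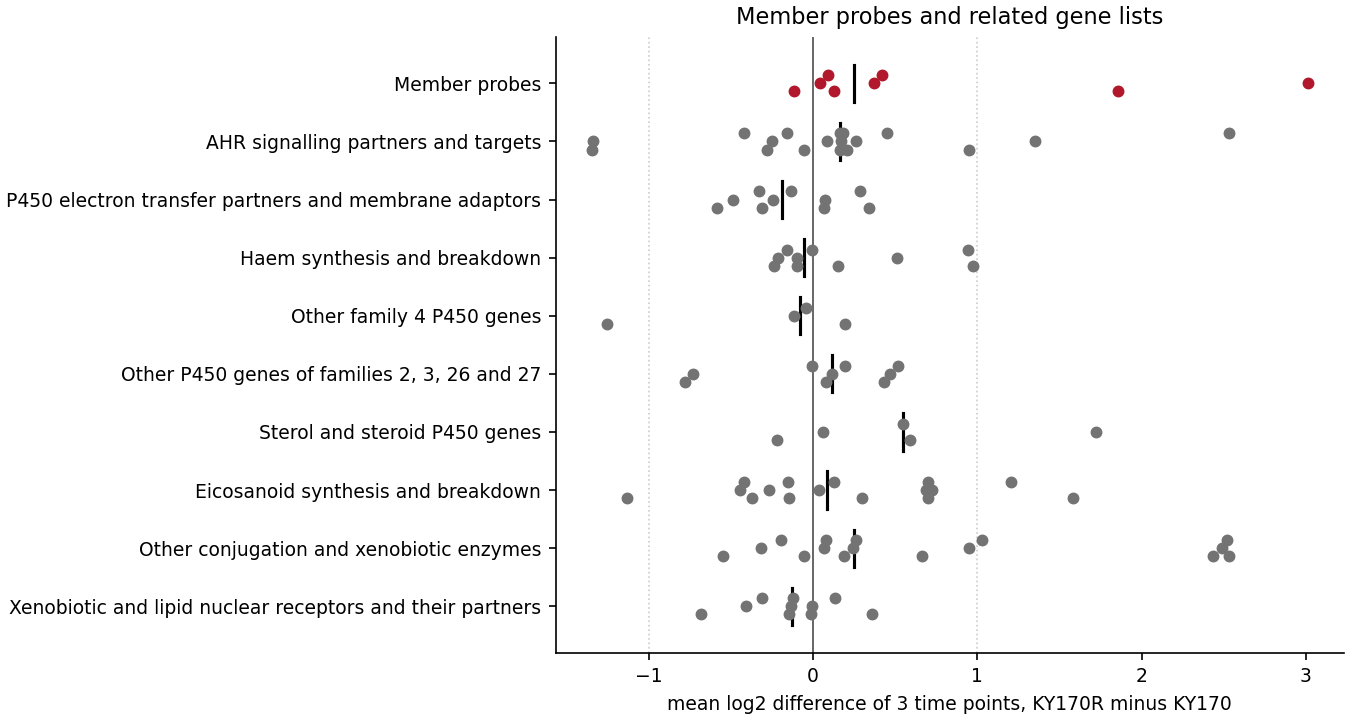
Mean log2 difference over the 3 time points, KY170R minus KY170, of the 8 tested probes described here (red) and of the tested genes of 9 related lists (grey), with a black bar at each median and dotted lines at a 2-fold difference. CYP4F11 (3.01) lies farthest to the right, with ALDH3A1, AKR1C2, AKR1B10 and AKR1C3 (2.43 to 2.53) next to it in the conjugation list, and the list medians lie between -0.19 and 0.55.

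The genes with the course most like that of each gene were sought among 14226 named probes, by Pearson's r of log2 values over the 6 arrays, as a description of arrays that share lines and time points. For CYP4F11 these were AKR1C3 (r = 0.996), AKR1C2 (r = 0.990) and CDH3, P-cadherin (r = 0.989). AKR1C3, an aldo-keto reductase of prostaglandins and steroids, read 6501, 3402 and 8805 in KY170R, against 2059, 547 and 1096 in KY170. Like CYP4F11 it had its lowest value in each line at 8 h, and its KY170R arrays all lay above its KY170 arrays. For CYP4F2 they were OR4C6 (r = 0.999), UBE2L6 (r = 0.990) and PPP4R4 (r = 0.985), and CYP4F2 and CYP4F11 correlated with each other at 0.895. For CYP1A1 they were a probe of PTGS1, a cyclooxygenase (r = 0.988), FAM47C (r = 0.981) and AUNIP (r = 0.977). That PTGS1 probe read 4.7, 19.5 and 65.9 in KY170R, against 36.9, 21.0 and 20.3 in KY170, while the brighter PTGS1 probe had another course, with 91.3, 96.7 and 57.2 in KY170R and 33.4, 51.3 and 65.4 in KY170. For AHR they were XRN1 (r = 0.998), EIF2AK2 (r = 0.996) and OSBP (r = 0.996), and for POR they were GIGYF1 (r = 0.998), CIZ1 (r = 0.992) and SPMAP2 (r = 0.990). With 6 arrays and so many probes searched, high values of r are common.

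**Figure D5:**
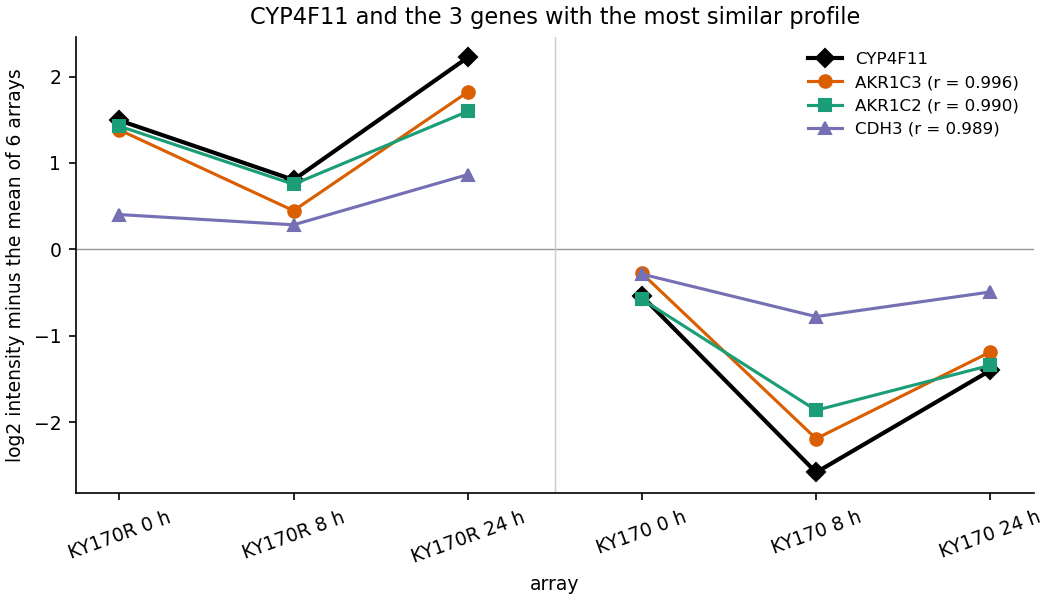
Log2 intensity of CYP4F11 (black) and of AKR1C3, AKR1C2 and CDH3 on the 6 arrays, each minus its own mean, with the KY170R arrays left of the grey line and the KY170 arrays right of it. All 4 genes lie above 0 on the 3 KY170R arrays and below 0 on the 3 KY170 arrays, with r of 0.989 to 0.996 to CYP4F11.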

How the data were processed

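RNA of KY170R and KY170 at 0, 8 and 24 h was measured on 6 Illumina Human-6 V3 arrays, 1 per line and time point. The authors deposited linear probe intensities from BeadStudio (version not given in the sources used here). They were background-subtracted (29.896 to 29.928% of values were negative) and normalised between arrays (medians 6.458 to 6.47) by a method not given. The study's methods state triplicate profiling, and whether each column pools repeats is not given. No array-level error or detection p-value was used, and the precision is limited by the number of arrays. Probe names came from the platform annotation: 27578 probes had 1 symbol, 13 several and 21212 none, and 27541 named probes were found in a RefSeq table of GRCh38.p14, from which neighbours and promoters were taken.

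Values under 11.585 (the pooled 1st percentile with its sign turned) were raised to it and log2 was taken. Probes above it on at least 2 of 6 arrays were tested with limma 3.58.1 in R 4.3.3 (lmFit, then eBayes with trend and robust), with time point and line as factors and 2 residual degrees of freedom, two-sided, Benjamini-Hochberg over 22720 probes, called under 0.05. Line differences are ratios at each time point, and where 1 side lay under the limit the ratio is a lower bound. Alternatives were a constant prior, other floors and filters, quantile normalization, no line term, a 1.5-fold threshold, the methods' t-test and leaving out each array. The genes, lists and tests were chosen with earlier results of these data known. Besides all probes of the 8 genes, the text names per list up to 4 genes with the largest mean line difference in size among genes above the limit on all 3 arrays of a line, and the 3 closest genes by r. TIPARP, NQO1, PPOX, NFE2L2, KRT5, KRT13 and KRT14 were named after their values were seen. Promoter windows were aligned globally with Biopython 1.88.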

Additional observations from a re-analysis of the deposited data

Results flagged for a closer look

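The lines lay on opposite sides of the 0 h value of CYP1A1 at both later times, above it in KY170R and below it in KY170, a difference of 1.59 on the log2 scale (SE 0.87, adjusted p = 0.999 in limma), which did not pass. The same held for 1393 of 22720 tested probes (6.13%) and for 1 of the 8 tested probes described here.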

How the results depend on the processing

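CYP4F11 had a higher mean level in KY170R under all 7 alternatives (mean log2 difference 2.71 to 3.50), as did CYP4F2 (1.01 to 2.45). The floors could not change CYP4F11, whose lowest value was 37.0, and quantile normalization left it at 3.01. CYP4F2 fell from 1.86 to 1.01 with the floor at 23.171. The genes were selected on this contrast, so these ranges are a description and lend it no support. The count of probes at least 2-fold higher in KY170R at all times was 2, also without each time point (2 to 2), and 1 with the floor at 23.171. At 8 h, 1 probe was called in the main analysis, against 0 with a constant prior variance, 0 with the floor at 23.171, 0 without the line term, 0 by the methods' t-test, 2 with probes above the limit on all 6 arrays and 0 to 0 without 1 array. The adjusted p of CYP4F11 at 8 h ranged over 0.00352 (limma with no filter) to 0.709 (the methods' t-test), with 5 of 15 alternatives calling it. At 24 h, 2 probes were called, against 0 with the floor at 23.171, 0 by the methods' t-test, 3 with the floor at 5.793, 3 with probes above the limit on all 6 arrays (POR, lower, was added in both) and 0 to 2 without 1 array. The AHR probes were called by 10 of 15 alternatives (adjusted p = 1.84e-05 to 0.204 and 1.68e-05 to 0.208). The lowest values came from limma with no filter, where the prior variance had infinite degrees of freedom. The next lowest were 0.00101 and 0.000998, from limma with probes above the limit on all 6 arrays. Between 8 and 24 h, 0 probes were called, against 1 with a floor of 1 and the upper 50% of probes, 1 with the floor at 5.793, 2 with no filter, 2 with probes above the limit on all 6 arrays and 0 to 0 without 1 array. The interaction called 0 of the 8 probes under every alternative run (over all probes 0, but 1098 with the floor at 23.171 and 2066 with no filter), and could not be fitted without either 0 h array. Over all probes, calls at 8 h numbered 6999, against 1059 with the floor at 23.171, 42 by the methods' t-test and 0 to 4635 without 1 array. At 24 h they numbered 8995, against 1631, 45 and 0 to 6037, and between 8 and 24 h 1409, against 0 to 2208 over all alternatives. At least 2-fold apart between the lines were 292 probes, against 203 to 894. The causes were not tested. Single arrays, 2 residual degrees of freedom and values near background limit every test. The line differences are paired by time point. By the difference of the line means, which is the same with or without that pairing, 894 probes in all and 2 of the 8 were at least 2-fold apart. That count does not ask for 2-fold at each time point, as the count of 292 does. The time comparisons carried line as a factor. Only pairing by replicate number was impossible, because each line and time point had 1 array.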
